A study of Mus musculus with 123 samples.

Results

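The nuclear regulators of oxidative metabolism examined here are 9 genes, chosen by name, of the 23337 in the count table: the coactivators Ppargc1a and Ppargc1b, the peroxisome proliferator-activated receptors Ppara and Ppard, the estrogen-related receptors Esrra, Esrrb and Esrrg, the mitochondrial transcription factor Tfam, and Nrf1. They were measured by RNA sequencing of single αMHC+ cells sorted from αMHC-GFP mouse hearts at embryonic days E9.5 and E12.5 and postnatal day P1, stages compared to profile how cardiomyocytes (CMs) mature. GFP in this line is driven by the αMHC (Myh6) promoter, so the sort selects cells in which that promoter is or was active. Hearts were digested with collagenase at both embryonic stages and with Liberase at P1, so digestion and birth cannot be told apart. Of 123 deposited cells, those in which 2000 or more genes had a count entered the analysis: all 42 E9.5 cells, all 29 E12.5 cells and 41 of 52 P1 cells. The labels name no animal or litter, so each stage is 1 sample of pooled cells, and no test or p-value was computed across cells.

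PGC-1 coactivators carry no DNA-binding domain of their own. They dock on nuclear receptors such as the PPARs and ERRs and on Nrf1, and so raise transcription of genes for fatty acid uptake and oxidation and for the respiratory chain, while Tfam, itself a target of Nrf1, enters mitochondria to package and transcribe mitochondrial DNA. In the heart this circuit is known for its role around birth, when CMs turn from glucose and lactate to fatty acids as fuel.

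Cell titles fall into naming sets whose meaning the labels do not give. E9.5 holds 14 cells of set C and 28 of set N530, E12.5 holds 20 of set C, 8 of set N523 and 1 named E12-5b, and all P1 cells are of set C. Depth moved with set and stage: the median total per cell was 149078 counts in P1 cells, 493238 in E12.5 cells and 2476022 in E9.5 cells, and among E9.5 cells 415427 for set C against 3151946 for set N530. Shares of cells are therefore also given after each cell was thinned at random to 100000 counts, which left out 3 P1 cells, and levels also within set C. All 8 CM markers examined were found at each stage, and Myh6 itself in 39 of 42 E9.5 cells and in every later cell. In 4 cells the summed level of another cell type's markers exceeded that of the CM markers. They are 3 E9.5 cells of set C, led by smooth muscle, endothelial or epicardial markers, and 1 P1 cell with 10245 counts per 1000000 (CPM) of endothelial against 272 CPM of CM markers. None of these 4 held a count of Ppargc1a, Ppargc1b, Ppara, Ppard, Esrrb or Esrrg.

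Ppara, Ppargc1b and Esrrb were found in a larger share of P1 cells than of embryonic cells. Ppara was held by 14 of 41 P1 cells, 2 of 29 E12.5 cells and 0 of 42 E9.5 cells. Ppargc1a was the regulator found in the most cells at every stage. Esrra, Esrrg, Tfam and Nrf1 were found in a smaller share of P1 cells than at either embryonic stage, which held after thinning for all but Esrra (15.8% of P1 and 14.3% of E9.5 cells). Ppard was rare throughout.

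**Figure D1:**
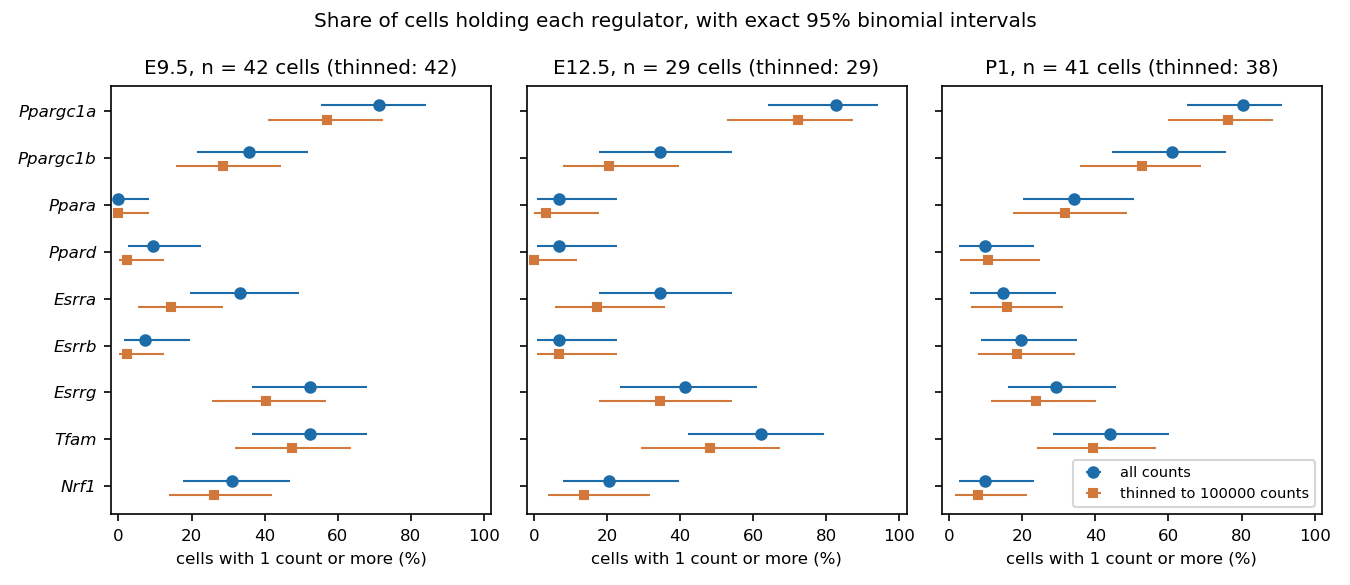
Share of cells (%, x axis) with 1 count or more of each regulator, by stage. Circles use all counts and squares every cell thinned to 100000 counts, and bars are exact 95% binomial intervals, which cover counting error only. Ppara goes from 0% of E9.5 cells to 34.1% of P1 cells, while the intervals of Tfam overlap across stages.

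Ppargc1a (PGC-1α, chr5:51454250-51567726 on the minus strand, GRCm38) lay in most cells from the earliest stage. At E9.5 71.4% of cells held it (exact 95% binomial interval 55.4 to 84.3), at E12.5 82.8% (64.2 to 94.2) and at P1 80.5% (65.1 to 91.2). Thinning lowered these shares to 57.1%, 72.4% and 76.3%. Read counts carry no molecular identifiers, so this and all other intervals cover counting error only. The E9.5 cells had a median of 19.4 CPM (range 0 to 867), the E12.5 cells of 115 CPM (0 to 803) and the P1 cells of 103 CPM (0 to 823). The ranges overlap almost entirely, and cells without a count occur at each stage.

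Levels were pooled over cells as summed counts over summed totals, so the deep sets weigh most: set N523 holds 41803388 of 50538600 E12.5 counts and set N530 95450903 of 101042067 E9.5 counts. So pooled, Ppargc1a was at 153 CPM in P1 cells, 84.0 CPM in E12.5 cells and 82.9 CPM in E9.5 cells. The sets of E12.5 cells stood apart: set C was at 228 CPM (Poisson 95% interval 217 to 238) and set N523 at 52.8 CPM (50.7 to 55.1). P1 lay between them, so the log2 ratio of P1 to E12.5, 0.87 over all cells, was -0.57 within set C. Against E9.5 the log2 ratio was 0.89, with values from 0.87 to 1.21 over the naming sets. Neither ratio reached 2-fold over all cells. Under the 12 alternatives the ratio to E9.5 lay between 0.27 (mean deposited transcripts per 1000000, TPM, a level per length of transcript) and 1.21, past 2-fold in 4 of them (TMM factors, 3000 or more genes per cell, the top cell of each stage left out, and set C). The ratio to E12.5 lay between -0.57 and 1.54, below 0 also with the mean of cell CPM (-0.22), with mean TPM (-0.36) and after thinning (-0.15). The embryonic stages could not be ordered: the log2 ratio of E12.5 to E9.5 was 0.02 over all cells, 1.78 within set C and -0.67 between sets N523 and N530.

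Ppargc1b (PGC-1β), the related coactivator, was held by 25 of 41 P1 cells (61.0%, interval 44.5 to 75.8), 10 of 29 E12.5 cells (34.5%, 17.9 to 54.3) and 15 of 42 E9.5 cells (35.7%, 21.6 to 52). In the same order the thinned shares were 52.6%, 20.7% and 28.6%. The P1 cells, the shallowest, thus held it most often both before and after thinning. The median cell was at 13.5 CPM at P1 (range 0 to 973) and at 0 CPM in the embryo, where no cell passed 219 CPM. Its pooled level was 75.2 CPM at P1 against 9.79 CPM at E12.5 and 18.9 CPM at E9.5. The log2 ratio at P1 was 1.99 against E9.5 (1.92 to 4.39 over naming sets) and 2.94 against E12.5 (2.70 to 2.97), and both were past 2-fold. Single cells weighed on these values: 1 held 38.2% of the P1 counts and another 75.6% of the E12.5 counts, and without the top cell of each stage the log2 ratios were 1.94 and 4.12. With 3000 or more genes required per cell the ratio to E9.5 was 0.60 and no longer past 2-fold.

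A ratio was called past 2-fold here where the pooled CPM differed by 2-fold or more and every combination of naming sets of 6 or more cells gave the same direction. 4 of the 9 regulators were higher at P1 than at E9.5 (Ppargc1b, Ppara, Ppard and Esrrb), where 17.8% of the 12159 genes found in 3 or more cells were. 3 of the 9 were lower at P1 than at E9.5 (Esrrg, Tfam and Nrf1), beside 31.8% of all genes. Against E12.5 the first 4 genes were again higher at P1, beside 24.3% of all genes, and Esrra was lower, beside 19.1%. Between the embryonic stages Esrra was the 1 gene higher at E12.5, beside 7.57% of all genes, and none of the 9 was lower, beside 20.4%. Both of these embryonic counts moved with the naming sets used, as given below under the dependence on processing. Both P1 comparisons share the same P1 cells. The median log2 ratio of the 9 genes was 0.89 against E9.5 and 0.87 against E12.5 at P1, beside -0.59 and 0.09 over all genes tested. With TMM scaling all log2 ratios shift by 0.17 (P1 to E9.5), -0.26 (P1 to E12.5) or 0.43 (E12.5 to E9.5), which reversed no called ratio of the 9.

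**Figure D2:**
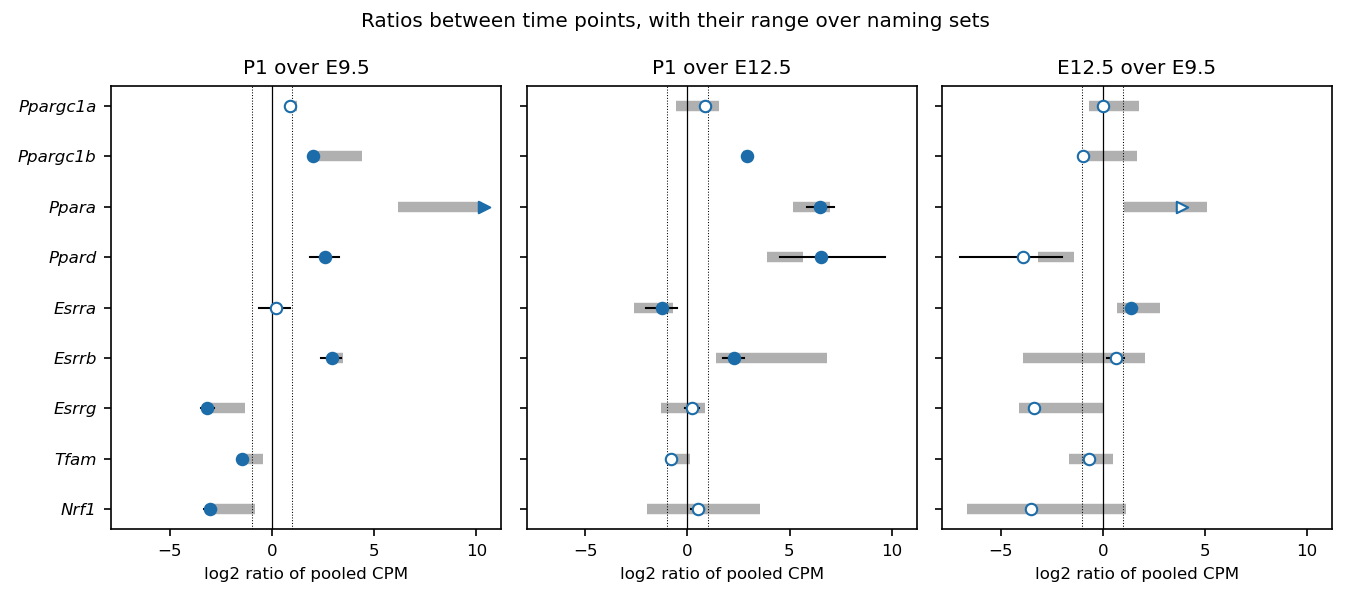
Log2 ratio of pooled CPM (x axis) of each regulator for the 3 pairs of stages. Points are all kept cells (filled: past 2-fold, triangle: bound with 3 counts in place of 0). Black lines are 95% counting intervals, grey bars span the combinations of naming sets (with 3 counts in place of 0), and dotted lines mark 2-fold. For Ppargc1b, Ppara, Ppard and Esrrb both P1 ratios and their grey bars lie above 2-fold. The grey bars of Ppargc1a, Esrrg, Tfam and Nrf1 cross 0 for P1 over E12.5.

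Ppara (PPARα, chr15:85734983-85802819 on the plus strand), the receptor that drives fatty acid oxidation genes, had no count at E9.5. Taking 3 cells or 3 counts as the limit of a 0, 0 of 42 cells allows a share of up to 7.14% and 0 counts among 101042067 up to 0.0297 CPM, and the exact 95% limits are 8.41% and 0.0365 CPM. The limits on the share are for cells with a count, not for cells that express the gene. At E12.5 2 cells, 1 of set C and 1 of set N523, held 22 counts (0.435 CPM pooled). At P1 14 cells (34.1%, interval 20.1 to 50.6) held 265 counts, or 38.9 CPM (34.3 to 43.8). The median P1 cell was at 0 CPM, the median of the cells that held it was 63.0 CPM, and the highest was at 367 CPM. The P1 counts were spread over cells, with 53 of them in the top one. After thinning 12 of 38 P1 cells, 1 of 29 E12.5 cells and 0 of 42 E9.5 cells held it. The pooled level at P1 was 1309-fold higher than the floor of 3 counts over the group set for E9.5, a log2 bound of 10.35. This bound follows the depth of the E9.5 cells and is no lower limit on the change in expression. With the counting error of the P1 level included the bound was 10.05, within set C it was 6.18 and after thinning 5.45. The pooled P1 level was 89.3-fold higher than at E12.5 (log2 6.48, counting interval 5.85 to 7.18). Over naming sets the log2 values were 5.15 and 6.97. Without the top cell of each stage the value was 7.33, since 1 of the E12.5 cells held 13 of the 22 counts.

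Promoter windows of the regulators were searched on both strands for the GC-rich core bound by Nrf1 (GCGCATGCG or GCGCACGCG), the ERR half-site TCAAGGTCA and the PPAR direct repeat of AGGTCA spaced by 1 base, to show which of these letters lie near the starts of genes that differed. RefSeq windows of 300 bases (GRCm38.p6, 250 before to 50 after a start) matched 8 of the 9 genes, with 13 windows in all. The Nrf1 core was in 2 of these 13 windows, 1 each of Ppara and Esrra, and in 3.36% of all 32851 windows. The ERR half-site, in 0.423% of all windows, and the direct repeat, in 0.0396%, were in none of the 13. The ERR half-site contains 1 copy of AGGTCA. A match is one of letters and no measure of binding. The stretches that hold the core are shown 5′ to 3′ on the strand of the gene with the core in capitals. In Ppara (chr15:85735665-85735764, plus strand) the capitals span 2 overlapping matches, 1 on each strand, and in Esrra (chr19:6921931-6922030, minus strand) 1 match.
Ppara: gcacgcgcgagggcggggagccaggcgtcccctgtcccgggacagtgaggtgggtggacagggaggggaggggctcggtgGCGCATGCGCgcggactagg
Esrra: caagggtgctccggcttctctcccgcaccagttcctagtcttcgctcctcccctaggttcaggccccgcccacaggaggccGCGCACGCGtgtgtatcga
Of the 14 P1 cells that held Ppara, 1 also held Nrf1, which was found in 4 of all 41 P1 cells. Whether Nrf1 acts on Ppara was not tested.

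Ppard (PPARδ, chr17:28232700-28301474, plus strand), the widely expressed PPAR, was found in 4 of 42 E9.5 cells with 61 counts, in 2 of 29 E12.5 cells with 1 count each and in 4 of 41 P1 cells with 25 counts. After thinning 1, 0 and 4 cells held it. Its pooled level was 3.67 CPM at P1, 0.0396 CPM at E12.5 and 0.604 CPM at E9.5. The log2 ratio at P1 was 2.60 against E9.5 (counting interval 1.87 to 3.30) and 6.53 against E12.5 (4.53 to 9.66), the latter resting on 2 counts at E12.5. Over naming sets they were 2.52 and 2.77 against E9.5 and 3.91 and 5.67 against E12.5, where 2.77 and 5.67 are bounds, since set C at E9.5 and set N523 at E12.5 had 0 counts. The ratio to E9.5 was 1.39 without the cells whose titles end in "no" and that to E12.5 had a bound of 2.20 after thinning, both still past 2-fold. The top P1 cell held 15 of the 25 counts. Per length of transcript Ppara made up 80.5% of the summed level of both PPARs at P1, while at E9.5 Ppard alone was found. Pparg, the remaining PPAR, had 0 counts in all kept cells.

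**Figure D3:**
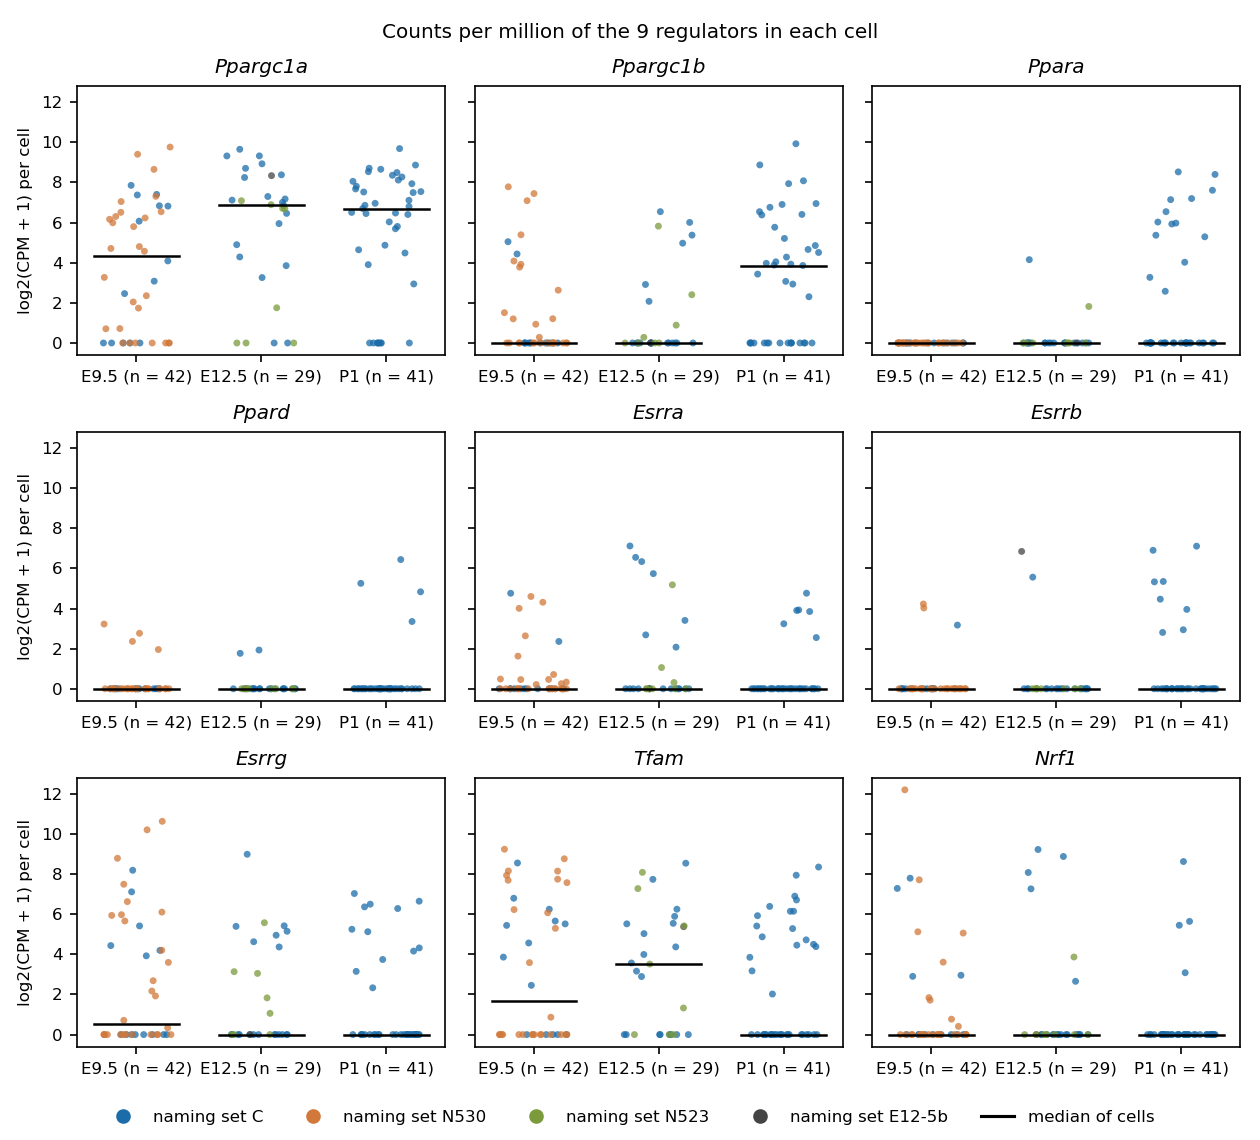
Level of each regulator in each kept cell as log2(CPM + 1) (y axis) by stage (x axis), coloured by naming set, with the median of cells as a black line. Points at 0 are cells with no count. All Ppara points above 0 but 2 are P1 cells, Ppargc1a is spread over the whole range at each stage, and the highest Nrf1 point is 1 E9.5 cell at 4689 CPM.

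Esrra (ERRα, chr19:6910977-6921813, minus strand), a main PGC-1 partner on respiratory chain genes, was found in 6 of 41 P1 cells (14.6%), 10 of 29 E12.5 cells (34.5%) and 14 of 42 E9.5 cells (33.3%). The thinned shares, 15.8%, 17.2% and 14.3%, were close to each other. Pooled levels were 2.49 CPM at P1, from 17 counts, against 5.84 CPM at E12.5 and 2.21 CPM at E9.5. Esrra was higher at E12.5 than at E9.5 by 1.403 on the log2 scale (0.70 to 2.80 over naming sets) and lower at P1 than at E12.5, with a log2 ratio of -1.23 (-2.61 to -0.71). With the top cell of each stage left out these were 0.90 and -0.90, both short of 2-fold, since 1 E12.5 cell held 55.6% of the E12.5 counts. P1 and E9.5 did not separate (log2 0.18, counting interval -0.63 to 0.89). Esrra shares 73 exonic bases with Trmt112 on the other strand and 91 with Mir6990, which is not among the symbols of the count table.

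Esrrb (ERRβ, chr12:86361117-86521628, plus strand), known from pluripotent cells and placenta, was found in 8 of 41 P1 cells, 2 of 29 E12.5 cells and 3 of 42 E9.5 cells, with pooled levels of 8.06, 1.66 and 1.07 CPM. At E12.5 59 of its 84 counts came from the lone E12-5b cell, at 114 CPM. The log2 ratio at P1 was 2.92 against E9.5 (2.89 to 3.49 over naming sets) and 2.28 against E12.5 (1.41 in set C and a bound of 6.81 in set N523, which had 0 counts). Against E12.5 it was past 2-fold under 8 of the 12 alternatives, and not after thinning (0.80), with the mean of cell CPM (0.76) or TPM (0.497), or without the cells whose titles end in "no" (1.66), while against E9.5 it stayed past 2-fold under all 12 alternatives. The 8 P1 cells held 6.00 to 137 CPM, and all 8 also held Ppargc1a, which was in 33 of all 41 P1 cells. The pluripotency and germ cell markers Pou5f1, Nanog, Dppa3 and Zfp42 were at 0 in all 41 P1 cells, and their summed level did not pass 5.00 CPM in any E9.5 cell.

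Esrrg (ERRγ, chr1:187608791-188214885, plus strand), an ERR known for its role in the oxidative program of the perinatal heart, was the leading ERR at E9.5. At that stage 52.4% of cells held it (36.4 to 68.0), at E12.5 41.4% (23.5 to 61.1) and at P1 29.3% (16.1 to 45.5). The thinned shares were 40.5%, 34.5% and 23.7%. The E9.5 cells ranged from 0 to 1581 CPM with a median of 0.449, the E12.5 cells from 0 to 506 CPM and the P1 cells from 0 to 130 CPM, both with a median of 0. Pooled over cells, 113 CPM in the E9.5 cells stood against 10.8 CPM in the E12.5 cells and 12.6 CPM in the P1 cells. P1 was below E9.5, at a log2 ratio of -3.17 over all cells, of -2.66 with the top cell of each stage left out and of -1.30 within set C, and stayed past 2-fold under all 12 alternatives. The ratio of E12.5 to E9.5 was -3.39 over all cells but 0.01 within set C, with levels of 31.3 and 31.1 CPM, so these stages could not be ordered. Of the summed mean TPM of the ERRs, Esrrg made up 94.2% at E9.5, Esrra 52% at E12.5, and Esrrg 45.9% at P1, the largest part at each stage.

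Tfam (chr10:71225464-71238280, minus strand), which packages mitochondrial DNA, was found in 18 of 41 P1 cells (43.9%, interval 28.5 to 60.3), 18 of 29 E12.5 cells (62.1%, 42.3 to 79.3) and 22 of 42 E9.5 cells (52.4%, 36.4 to 68.0). Thinned shares were 39.5%, 48.3% and 47.6%, and the intervals overlap. The pooled level was 39.4 CPM at P1, 68.8 CPM at E12.5 and 111 CPM at E9.5. Within set C the levels were 39.4, 35.8 and 52.9 CPM, a log2 ratio of P1 to E9.5 of -0.42 against -1.49 over all cells. Of the 296 Tfam counts in E9.5 cells of set C, 201 lay in the 3 cells with markers of other cell types. Without the 4 cells that stand apart the ratio over all cells was -1.44, but the naming sets no longer gave 1 direction and the call was lost.

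Nrf1 (chr6:30047988-30153458, plus strand), nuclear respiratory factor 1, was found in 4 of 41 P1 cells (9.76%), 6 of 29 E12.5 cells (20.7%) and 13 of 42 E9.5 cells (31.0%), and in 7.89%, 13.8% and 26.2% after thinning. 1 E9.5 cell of set N530 held 11821 of the 13154 counts at that stage. The pooled level was 15.8 CPM at P1, 11.2 CPM at E12.5 and 130 CPM at E9.5, and without the top cell of each stage 4.08, 6.71 and 13.5 CPM. The P1 to E9.5 log2 ratio moved accordingly from -3.04 to -1.73, and was -0.85 within set C. Per cell the median was 0 CPM at every stage.

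Per length of transcript, the order of the 9 genes differed by stage. At P1 mean TPM was highest for Ppargc1a (39.6 ± 44, SD over 41 cells), followed by Ppargc1b (33.7 ± 90.0), Tfam (13.5 ± 28.2) and Ppara (8.21 ± 18.2), with Esrra last (1.53 ± 4.18). At E12.5 it was Ppargc1a (50.8 ± 60.2, SD over 29 cells), Tfam (22.4 ± 40.9) and Nrf1 (19.1 ± 53.8), with Ppara (0.161 ± 0.766) and Ppard (0.1004 ± 0.376) last. At E9.5 Nrf1 (57.6 ± 329, SD over 42 cells) led through its 1 high cell, then Tfam (43.8 ± 80.1), Esrrg (43.3 ± 136) and Ppargc1a (32.9 ± 71.1), and Ppara was at 0. Of the 8 pairs of neighbours in the order, 8 at P1, 7 at E12.5 and 5 at E9.5 were closer than the SD over cells of both genes.

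A kept cell held a median of 3 of the 9 genes at each stage. Means were 3.02 ± 1.31 at P1, 2.97 ± 1.52 at E12.5 and 2.93 ± 1.58 at E9.5 (SD over cells), and after thinning 2.76 ± 1.32, 2.17 ± 1.28 and 2.19 ± 1.21. 2 E9.5 cells and 1 E12.5 cell held none of them, and every P1 cell held at least 1. At P1 38 of 41 cells held at least 1 of the 2 PGC-1 coactivators (92.7%, interval 80.1 to 98.5) and 20 held both. Of the 14 P1 cells with Ppara, 10 held Ppargc1a, 7 held Ppargc1b and 5 held Esrrg. Of all 41 P1 cells 33, 25 and 12 held these genes, so the numbers do not show joint expression.

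The link to fatty acid genes was examined over the 41 P1 cells. Fabp3, the heart's fatty acid binding protein, was found in every P1 cell, at a median of 11090 CPM with a range from 9.72 to 22208. The lowest value was that of the P1 cell with endothelial markers. Pearson correlations of log2(CPM + 1) with Fabp3 were 0.18 for Ppargc1a, 0.17 for Ppargc1b, 0.10 for Ppara, -0.32 for Esrra, 0.01 for Esrrb, 0.17 for Esrrg and 0.14 for Tfam. Ppard and Nrf1, each in 4 P1 cells, were left out. Without the cell with endothelial markers the values were -0.18 for Ppargc1a, 0.03 for Ppargc1b, 0.01 for Ppara, -0.25 for Esrra, -0.13 for Esrrb, 0.19 for Esrrg and 0.06 for Tfam. The points share 1 stage, 1 naming set and their depth: with log10 of total counts the correlation was 0.37 for Tfam, 0.28 for Esrra and -0.16 for Ppargc1a. In counts this sparse none of these values is a finding.

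Cpt1b, which encodes the muscle enzyme that admits fatty acids to mitochondria, gave no usable link. It had 1 count in 1 P1 cell, 160 counts in 4 E12.5 cells and 99 counts in 5 E9.5 cells, and correlations with the 7 regulators rest on that 1 P1 cell. In the GENCODE annotation of GRCm38 2744 of its 3372 exonic bases, or 81.4%, are shared with Gm44502 on the same strand. Where both genes are annotated, reads there cannot be given to 1 of them. Gm44502 is not among the symbols of the count table. The annotation behind the deposited counts is not given in the sources used here, and the part of this overlap in the low counts was not tested. Cpt1a, its liver-type counterpart, was added after the data were seen. It was found in 22 of 41 P1 cells at 62.5 CPM. Its correlation was 0.46 with Ppargc1a, 0.30 with Esrrg, and between -0.13 and 0.17 with the other 5 genes. For Ppargc1a the value lay between 0.41 and 0.46 under the 10 alternatives tried, and at 0.44 without the cell with endothelial markers. As the highest of several correlations over the same 41 cells it is a description of these cells.

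**Figure D4:**
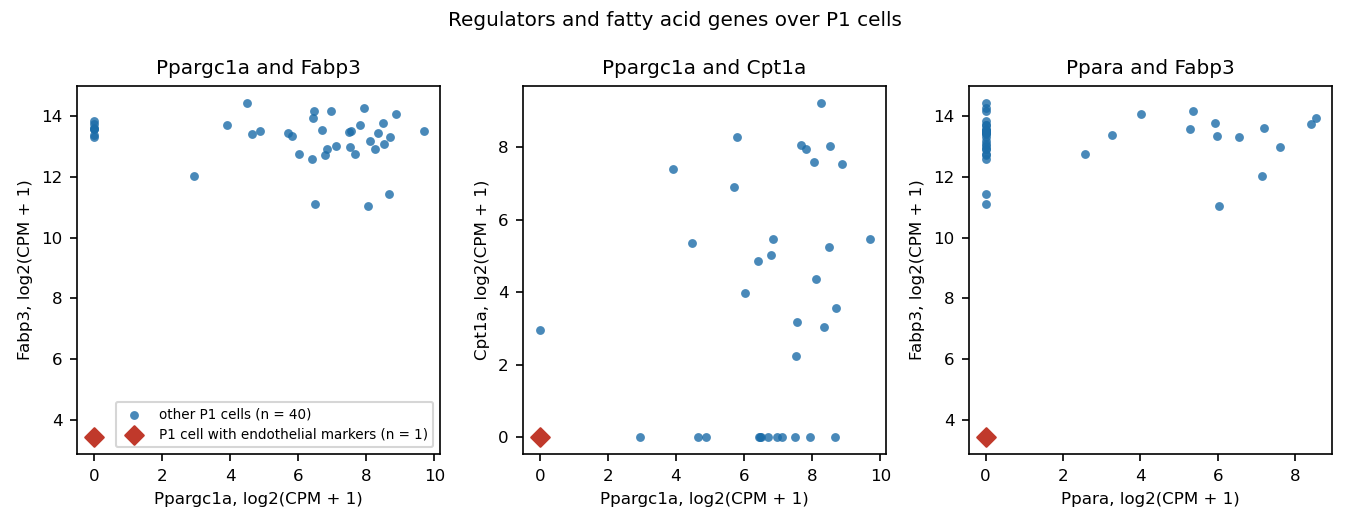
Log2(CPM + 1) of Ppargc1a against Fabp3 and Cpt1a and of Ppara against Fabp3 over the 41 P1 cells (1 point each). The diamond is the P1 cell with endothelial markers, at 9.72 CPM of Fabp3 and no count of Ppargc1a or Ppara. Without it the correlation of Ppargc1a with Fabp3 goes from 0.18 to -0.18.

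The genes most like a regulator over the P1 cells were named among 2046 or 2047 genes found in at least 50% of them. For Ppargc1a they were Rab3b (Pearson r 0.54), Esf1 (0.54) and 0610010O12Rik (0.53), for Ppargc1b Dap3, Elavl1 and Lrrc10 (0.51 to 0.48), and for Ppara Tns1, Ablim1 and Hnrnpf (0.47 to 0.45). For Esrrg they were Pcbp2, Anapc5 and H2-Ke2 (0.47 each), and for Tfam Ldha, Tmem30a and Nck2 (0.498 to 0.46). These are the top values of many, beside 99th percentiles of 0.34 to 0.39.

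Known fatty acid targets of the regulators were mostly higher at P1. Of 31 fatty acid genes, 26 were past 2-fold higher at P1 than at E9.5 and 1 was lower, and 22 were higher and 2 lower at P1 than at E12.5. Over all genes 17.8% were higher and 31.8% lower against E9.5, and 24.3% higher and 19.1% lower against E12.5. The list's median log2 ratios were 3.34 and 2.41, beside -0.59 and 0.09 over all genes. 21 were higher in both comparisons, 22 without the 4 cells that stand apart and 19 with TMM factors. Plin5, a lipid droplet protein, was at 49.7 CPM at P1 in 11 cells, with 0 counts at E12.5 and 0.01 CPM at E9.5. Acot1, an acyl-CoA thioesterase, was at 49.4 CPM against 0.42 and 0.25 CPM, and Angptl4, a lipoprotein lipase inhibitor, at 71.4 CPM against 0.83 and 1.30 CPM. Fabp3 (10905 CPM), the thioesterase Acot2 (2287 CPM) and the fatty acid transporter Cd36 (2176 CPM) had the most P1 counts, and all 3 were past 2-fold higher in both comparisons. Plin2 was the 1 gene of the list lower in both, at 17.6 CPM against 47.6 and 37.2 CPM.

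Of 24 respiration genes, 18 were past 2-fold higher and 1 lower at P1 than at E9.5, and 9 higher and 1 lower at P1 than at E12.5, with median log2 ratios of 1.498 and 0.88. Over all genes the shares higher were 17.8% and 24.3%, the shares lower 31.8% and 19.1% and the medians -0.59 and 0.09. Ckmt2, the mitochondrial creatine kinase of striated muscle, was at 356 CPM at P1 against 0.28 and 0.59 CPM in E12.5 and E9.5 cells, and myoglobin, Mb, at 1105 CPM against 45.3 and 0.83 CPM. The respiratory subunit Cox5b was past 2-fold higher at P1 in both comparisons (log2 1.60 and 1.89 against E12.5 and E9.5), as was cytochrome c, Cycs (1.503 and 2.62). The adenine nucleotide carrier Slc25a4 had the most P1 counts, followed by the ATP synthase subunits Atp5b and Atp5o, which were past 2-fold higher against E9.5 alone. The import factor Tomm34 was lower at P1 in both comparisons.

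Of 20 genes of the machinery of mitochondrial DNA, the level at which Tfam acts, 4 were higher and 4 lower at P1 than at E9.5, and 7 higher and 3 lower at P1 than at E12.5, with median log2 ratios of 0.09 and 0.60. That is 20% and 35% higher, beside 17.8% and 24.3% of all genes, and 20% and 15% lower, beside 31.8% and 19.1%. Tfb2m, the partner of Tfam at the mitochondrial promoters, was at 35.05 CPM at P1 against 6.95 and 1.71 CPM in E12.5 and E9.5 cells, and the mitochondrial termination factor relative Mterfd2 at 52.5 CPM against 2.37 and 2.26 CPM. Rrm2b, a ribonucleotide reductase subunit, was at 55.3 CPM against 21.5 and 10.7 CPM, and all 3 were past 2-fold higher in both comparisons. Over naming sets the lowest log2 ratios of Tfb2m at P1 were 0.02 against E12.5 and 0.74 against E9.5. Those of Mterfd2 were 1.85 and 0.36. Tfb2m was found in 24.4% of P1, 31.0% of E12.5 and 23.8% of E9.5 cells, so its share did not rise with its pooled level. Ssbp1, the single-strand binding protein, had the most P1 counts and differed by less than 2-fold, and Mterfd3 was past 2-fold higher against E12.5 alone. Mgme1 (listed as 8430406I07Rik), an exonuclease of mitochondrial DNA, had 0 counts at P1 against 49.2 and 38.6 CPM. No mitochondrially encoded gene is among the symbols of the count table.

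Of 32 partners and cofactors of the regulators, 6 were higher and 4 lower at P1 than at E9.5, and 9 higher and 3 lower at P1 than at E12.5, with median log2 ratios of -0.13 and 0.67. The shares higher, 18.8% and 28.1%, were near the 17.8% and 24.3% of all genes, and 31.8% and 19.1% of all genes were lower. Perm1 (listed as 2310042D19Rik), a muscle regulator that acts with PGC-1 and ERRs, was at 51.2 CPM at P1 in 13 of 41 cells, with 0 counts at E12.5 and 0.41 CPM at E9.5. Nrip1, a corepressor of these receptors, was at 11.7 CPM at P1 against 0.63 CPM at E12.5 and 1.62 CPM at E9.5. It was found in 5 P1 cells (12.2%), 4 E12.5 cells (13.8%) and 7 E9.5 cells (16.7%), so its share was not larger at P1. Klf15 also passed in both comparisons, on 9 counts in 1 P1 cell. Mef2c and Creb1, known as activators of Ppargc1a transcription, were lower at P1 in both, at 131 against 380 and 645 CPM and at 32.8 against 90.1 and 161 CPM. Med1, Prkaa2 and Hif1a had the most P1 counts of the list, and of these the mediator subunit Med1 was lower at P1 than at E12.5 (log2 -1.15).

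**Figure D5:**
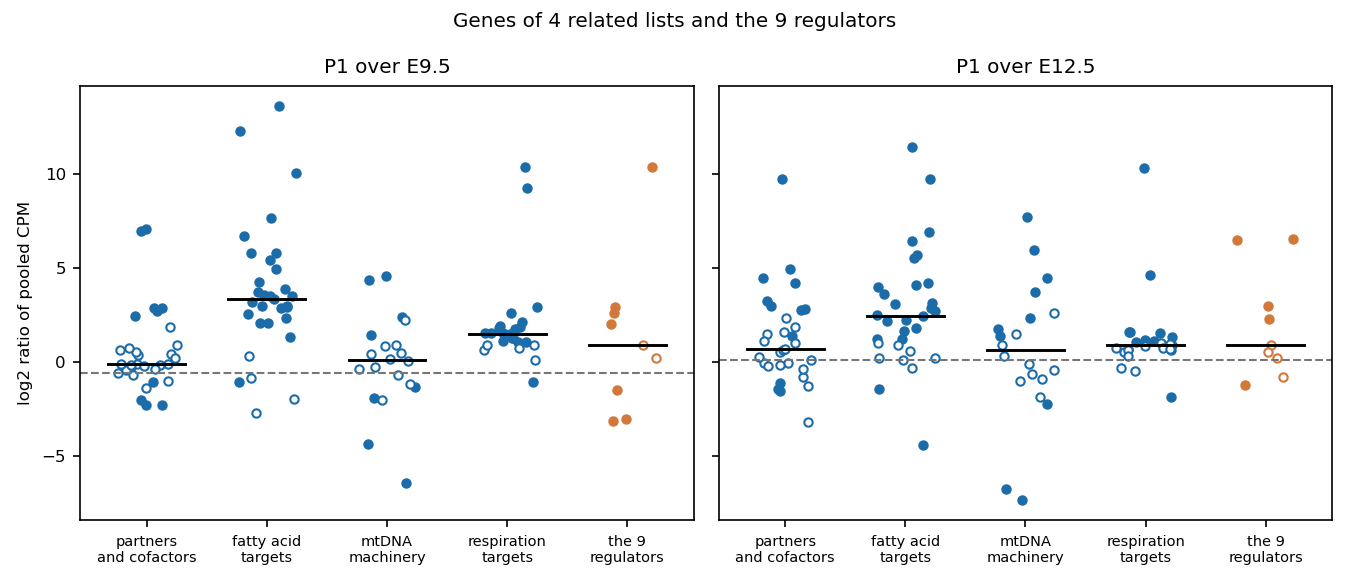
Log2 ratio of pooled CPM (y axis) of P1 over E9.5 and over E12.5 for each gene of 4 lists and for the 9 regulators. Filled points are past 2-fold, black bars are medians of each list and dashed lines the median of all genes tested. Fatty acid targets have medians of 3.34 and 2.41, against 0.89 and 0.87 for the 9 regulators.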

How the data were processed

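Single αMHC+ cells were amplified on the Fluidigm C1 system with SMART-Seq V4 chemistry. The authors mapped reads with OLego and counted them per gene symbol with featureCounts (build GRCm38, per the labels), and deposited raw counts and, computed from them, TPM on a linear scale. Cells with 2000 or more genes were kept, with totals from 69522 to 7711355 counts, so that 1 count at P1 equals 0.147 pooled CPM. Pooled CPM, exact binomial (Clopper-Pearson) and Poisson intervals at 95%, ratios with 0 counts set to a floor of 3 over the group, and correlations of log2(CPM + 1) were computed in Python 3.11.15, and TMM factors with edgeR 4.0.16. Scripts were tested on simulated counts. All 9 genes are named; from each other list, the 3 with the most P1 counts and up to 4 in each direction past 2-fold in both P1 comparisons; and the 3 genes most like each regulator found in 25% or more of the cells. 1 gene that this rule names is not reported here. 9 list symbols were matched through RefSeq synonyms, and genes listed under 2 names were counted once. Members and lists were chosen with earlier results of these data known. Alternatives covered cell filters, scaling, thinning, naming sets, pseudocounts and marker-positive cells.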

Additional observations from a re-analysis of the deposited data

Results flagged for a closer look

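The 11 P1 cells with fewer than 2000 genes, which entered no comparison, held 714929 counts in all, and 6 of the 9 regulators lay above the 4.20 CPM that a count of 0 would allow there. Ppargc1a was at 136 CPM in 5 of the 11 cells, Tfam at 62.9 CPM in 3 and Esrrg at 41.96 CPM in 1. Ppara was at 12.6 CPM, with 9 counts in 1 cell, Ppargc1b at 11.2 CPM in 3 cells and Esrra at 5.59 CPM in 1. Ppard, Esrrb and Nrf1 had no count there.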

How the results depend on the processing

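Of the numbers of regulators past 2-fold, the 4 higher at P1 than at E9.5 and the 4 higher than at E12.5 each became 2 when only genes at 10 CPM or more in either stage were counted, which leaves out Ppard, Esrra and Esrrb, and stayed within 1.5 times under the other 14 alternatives. The 3 lower at P1 than at E9.5 became 1 within set C. The 1 lower at P1 than at E12.5 became 3 within set C, 2 with TMM factors and 0 with 3000 or more genes per cell, with sets N530 and N523 in place of all cells, without cells whose titles end in "no", without the top cell of each gene, at 4-fold and at 10 CPM or more. The 1 higher at E12.5 than at E9.5 became 6 within set C, and 0 without the top cell of each gene, at 4-fold and at 10 CPM or more. The 0 lower at E12.5 became 5 with sets N530 and N523, and 1 with means of cell CPM or deposited TPM, thinning, 6 of 8 CM markers, without the 4 cells that stand apart (chosen after seeing the data) and without top cells. Of the lists, the 3 partners higher at P1 in both comparisons became 6 and the 8 respiration genes 14 within set C, also chosen after seeing the data. The causes were not tested. No called ratio of a regulator changed sign under any alternative run. Of 234 alternative shares 24 left the main interval and of 196 alternative correlations 24 moved by 0.1 or more. No paired analysis was possible because the result comes from no test. Depth limits the sparse genes: Esrra rests on 17 counts at P1 and Ppard on 2 at E12.5.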

Other observations

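Over the 20 E12.5 cells of set C, the genes most like a regulator among about 3548 found in at least 50% of these cells were, for Ppargc1a, Nop58 (Pearson r 0.83), Acot13 (0.80) and Cct5 (0.80), for Ppargc1b Sssca1 (0.67), for Esrra Por (0.72), for Esrrg Psmd5 (0.85), for Tfam Dst (0.79) and for Nrf1 Mfap2 (0.63). Only Ppargc1a, Ppargc1b, Esrrg and Tfam also have such genes over P1 cells, and none of their 3 genes recurred here. With 3 genes named among so many, shared names would be rare in any case, so this does not compare the stages. With 20 cells and sparse counts these correlations are top values of many, beside 99th percentiles of 0.46 to 0.66, and no test was run.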
